A study of Caenorhabditis elegans with 2 samples.

Results

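The genes described here are cdc-48.1 and cdc-48.2, which encode the AAA ATPase CDC-48 of Caenorhabditis elegans, and ufd-1, npl-4.1 and npl-4.2, which encode its adaptors UFD-1 and NPL-4. They are 5 of 19973 annotated protein-coding genes, and each is described by the regions that VAB-15 ChIP-seq returned at it. A region counted for a gene when its summit lay inside the annotated gene or within 5000 bp upstream of its start. By this rule 19 of 30000 regions in the pooled list belonged to the 5 genes, as did 18 of 30000 in replicate 1 and 15 of 30000 in replicate 2. The genes were chosen by the signal rank of their regions in these same lists, so the ranks below are a description and carry no test.

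VAB-15 belongs to the Msx family of homeodomain transcription factors, and the study measured where it binds by chromatin immunoprecipitation and sequencing. There was 1 group with 2 biological replicates: whole first-stage (L1) larvae of strain XIL99, starved after bleaching, males and females pooled, age given as unknown. CRISPR editing of the worm's own vab-15 gene had added GFP-FLAG to the protein's C terminus, sonicated chromatin was precipitated with an antibody to GFP, and whole animals mix all cell types. No untagged or other comparison group was analysed here, so nothing below compares conditions. Each list holds a preset 30000 regions, so its lower part is background by construction. Sequencing depth is unknown, and signal values from different lists are not on 1 scale.

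CDC-48, called p97 or VCP in mammals and Cdc48 in yeast, is a ring-shaped ATPase that pulls ubiquitin-tagged proteins out of membranes, complexes and chromatin. UFD-1 and NPL-4 form a pair that binds ubiquitin chains and brings the tagged protein to the ring. The complex acts in endoplasmic reticulum-associated degradation, in which misfolded proteins are drawn out of the endoplasmic reticulum and passed to the proteasome, and in chromosome replication in the worm embryo. The worm has 2 nearly alike CDC-48 genes and 2 nearly alike NPL-4 genes, so regions at the copies can be set side by side.

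The sequences below show what lay under the strongest pooled region of the 3 genes with the best ranks, and that the NPL-4 copies have the same letters before their starts. All are from the RefSeq copy of assembly WBcel235, which is ce11, the build of the lists, and all are written 5′ to 3′ on the strand of the gene. Capitals mark matches, on either strand, to any of 6 motifs: the 6-mer GAGCGC, the 6-mer AGCGCG, the 6-mer ACGCGC, the 6-mer ACGCAG, the 6-mer GCGCAC and the 6-mer TAATTG. The 5 GC-rich 6-mers had been picked as common under strong regions in these same data, and TAATTG is a core that homeodomains of this class bind. The whole cdc-48.1 region is chrII:10563454-10563666, minus strand. The cdc-48.2 window is chrII:8137620-8137720, plus strand. The ufd-1 window is chrIV:12335673-12335773, minus strand. The last pair are the 100 bases before the starts of npl-4.1 (chrII:5631251-5631350, plus strand) and npl-4.2 (chrII:5622789-5622888, plus strand).
cdc-48.1 region: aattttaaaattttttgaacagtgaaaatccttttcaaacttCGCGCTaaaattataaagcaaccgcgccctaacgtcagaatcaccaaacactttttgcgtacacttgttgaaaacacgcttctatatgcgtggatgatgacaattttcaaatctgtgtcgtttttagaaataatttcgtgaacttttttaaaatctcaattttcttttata
cdc-48.2 summit window: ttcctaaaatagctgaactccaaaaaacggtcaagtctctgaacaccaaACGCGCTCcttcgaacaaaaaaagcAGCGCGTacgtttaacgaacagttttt
ufd-1 summit window: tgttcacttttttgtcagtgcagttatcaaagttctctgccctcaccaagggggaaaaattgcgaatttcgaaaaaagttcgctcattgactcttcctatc
npl-4.1 before the start: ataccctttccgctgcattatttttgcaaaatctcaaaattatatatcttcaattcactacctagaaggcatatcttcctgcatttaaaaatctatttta
npl-4.2 before the start: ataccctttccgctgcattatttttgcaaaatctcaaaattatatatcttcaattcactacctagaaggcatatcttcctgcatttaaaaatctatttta

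The strongest regions of the 5 genes ran from rank 5 to rank 24206 in the pooled list, where npl-4.2 had none, and from 3 to 9449 in replicate 2. In all 3 lists cdc-48.1 was near the top, and the NPL-4 genes were at rank 4630 or weaker where they had a region at all. "Strongest regions" here are the first 990 of each list by the authors' signal, 990 being the size of their optimal set, whose members are exactly the 990 strongest pooled regions. In the pooled list 1 of the 5 genes, cdc-48.1, held such a region, against 9.28% of all protein-coding genes. In replicate 1 it was again 1 of 5, against 9.23% of all genes, and in replicate 2 it was 2 of 5, cdc-48.1 and cdc-48.2, against 8.62% of all genes. A region of any rank lay in the windows of 4 of 5, 4 of 5 and 5 of 5 genes in the pooled, replicate 1 and replicate 2 lists, against 74.7%, 75.9% and 81.5% of all genes. Within 1000 bp upstream of the start, 1 of 5 held a pooled region among the strongest, against 4.05% of all genes. When a region counted only for the gene with the nearest start, it was still 1 of 5, against 4.13% of all genes. Since the genes were chosen with these ranks known, nothing is read from those shares.

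**Figure D1:**
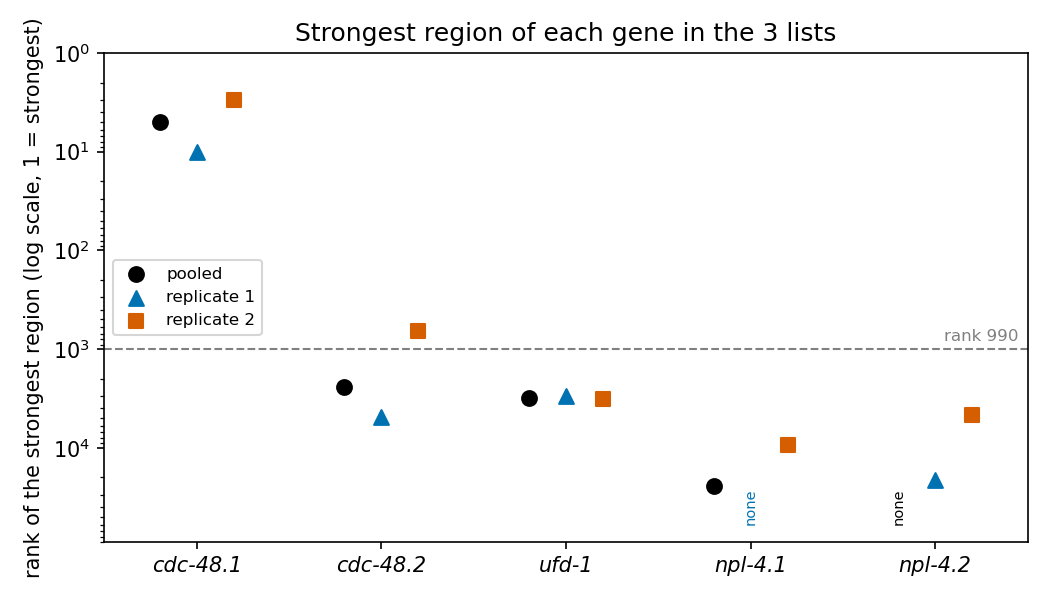
Rank of the strongest region of each gene (vertical log axis, 1 is strongest) in the pooled, replicate 1 and replicate 2 lists, with the dashed line at rank 990. cdc-48.1 lies at ranks 5, 10 and 3 and ufd-1 between ranks 3012 and 3186, cdc-48.2 crosses the line in replicate 2 alone, and npl-4.1 and npl-4.2 each lack a region in 1 list. The ranks of cdc-48.2 and of ufd-1 are not of the same place in all lists.

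cdc-48.1 (WBGene00007352) is a gene of 3372 bp with 5 exons on the minus strand, chrII:10560036-10563407, and encodes 809 residues. Its strongest region ranked 5 of 30000 in the pooled list, 10 in replicate 1 and 3 in replicate 2. The authors' signal there was 476 pooled, 310.2 in replicate 1 and 158 in replicate 2, which is 11.4, 10.3 and 9.17 times the median of each list. Both replicates thus placed the region within the first 10. Among all protein-coding genes ranked by their strongest region, cdc-48.1 stood at place 15 pooled, 28 in replicate 1 and 11 in replicate 2, since neighbouring genes can share a region.

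The summit lay in intergenic sequence just before the gene, 170 bp upstream of the annotated start in the pooled list. The replicate summits were 165 and 155 bp upstream, shifts of 5 and 15 bp. C06A1.6, on the same strand, is the next gene before the start, 704 bp away, so the start nearest to the summit was that of cdc-48.1. The region was 213 bp wide in the pooled list, 195 bp in replicate 1 and 117 bp in replicate 2. The usual width was 376, 370 and 364 bp, and narrower regions made up 0.393%, 0.29% and 0.0567% of the lists but 20, 19 and 12 of the first 20. The deposited -log10 q was 3.05, 3.15 and 2.55, the highest value of each list, shared by 561, 701 and 179 regions, so it does not order the top.

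Around it in the pooled list stood regions nearest to tub-2 (rank 3), kcc-2 (rank 4), ekl-4 (rank 6) and C06B3.7 (rank 7). Their signals were 518, 502, 465 and 448, against 476 at cdc-48.1. The genes most like cdc-48.1 were taken as those whose strongest region within 1000 bp upstream had the nearest ranks in both replicates, measured as the sum of the 2 absolute log2 rank ratios, over 3879 genes. C06B3.6 and C06B3.7, a divergent pair that shares 1 region, came first with a sum of 1.74 and ranks of 8 and 8. W02G9.3 (1.99, ranks 17 and 7), K12H4.5 (2.01, ranks 11 and 11) and Y71G12A.5 (2.74, ranks 3 and 6) followed. The Y71G12A.5 region is the one at pooled rank 3 named above, to which the tub-2 start is nearer, at 38 bp.

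**Figure D2:**
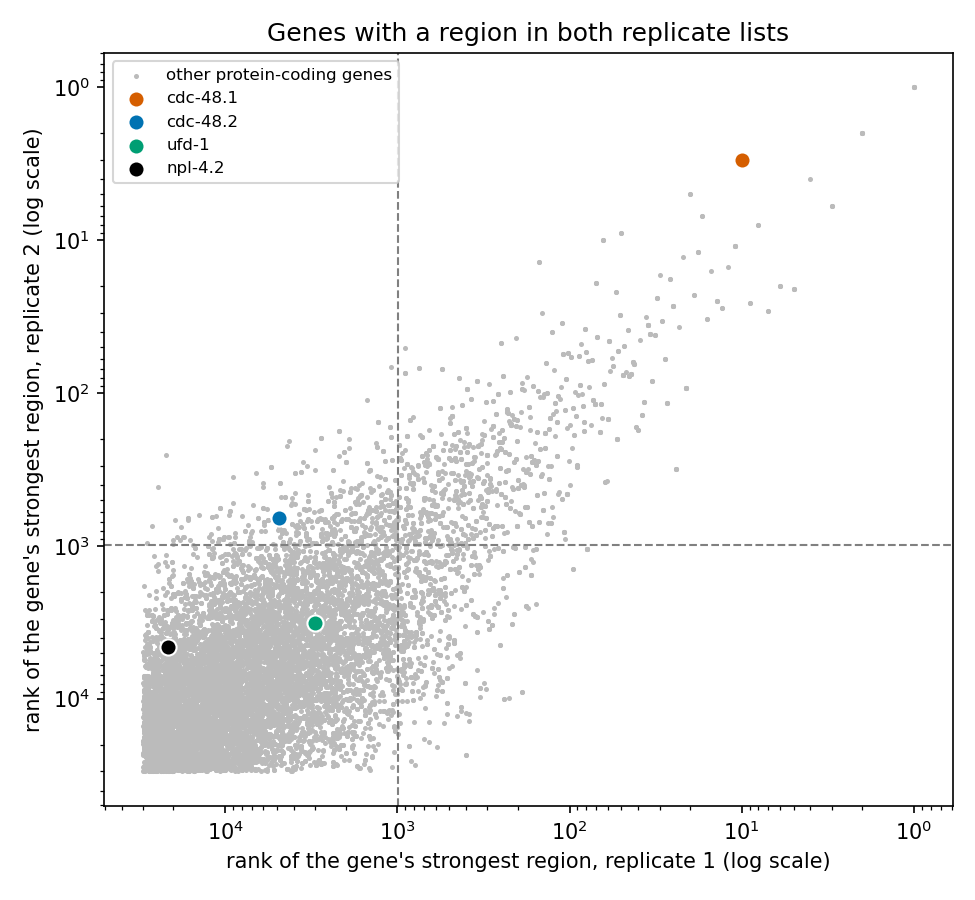
Rank of the strongest region of each protein-coding gene in replicate 1 (horizontal log axis) and replicate 2 (vertical log axis), strong ranks at the upper right and dashed lines at rank 990. cdc-48.1 sits near the upper right corner at 10 and 3, cdc-48.2 at 4883 and 660, ufd-1 at 3012 and 3186 and npl-4.2 at 21430 and 4630, while npl-4.1 has no replicate 1 region and is not drawn.

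The other regions at cdc-48.1 were far weaker. The second, 2037 bp inside the gene in a coding exon, had signals of 71.7, 47.7 and 21.9 and ranks of 3261, 4145 and 7460 in the pooled, replicate 1 and replicate 2 lists. The first region exceeded it 6.64, 6.51 and 7.20 times. The remaining pooled regions, in an intron at 2917 bp and at 3072 bp upstream, ranked 22592 and 19130. Replicate 1 alone had a region at 367 bp, rank 9282, in an intron that holds the small nucleolar RNA gene C06A1.9. On the downstream side, the nearest region of the optimal set lay 11387 bp from the start, in an intron of mnk-1, at rank 781.

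cdc-48.2 (WBGene00008053), 2735 bp with 5 exons on the plus strand at chrII:8138496-8141230, encodes the second CDC-48, of 810 residues. Its strongest region ranked 2439 pooled, 4883 in replicate 1 and 660 in replicate 2, with signals of 79.3, 45.3 and 44.2, or 1.91, 1.498 and 2.57 times the list medians. These were not the same place: the pooled and replicate 2 summits lay 826 and 821 bp upstream, and the replicate 1 summit 2326 bp inside the gene in a coding exon. At the upstream region replicate 1 had signal 37.6 and rank 8391. The replicates therefore put the upstream region on opposite sides of rank 990.

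That upstream region lies between cdc-48.2 and ctns-1, which run apart from each other across a gap of 1577 bp. Its pooled summit was 752 bp from the start of ctns-1 and 826 bp from that of cdc-48.2, so ctns-1 has the nearer start. Of the 6 pooled regions in the cdc-48.2 window, 2 had the cdc-48.2 start as the nearest, both in coding exons, at 2183 bp (rank 5707) and 2382 bp (rank 18368). The nearest regions of the optimal set were 31165 bp upstream and 46708 bp downstream of the start.

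The 2 CDC-48 genes differed in every list in the same direction. The strongest cdc-48.1 region had 6.00, 6.85 and 3.57 times the signal of the strongest cdc-48.2 region in the pooled, replicate 1 and replicate 2 lists. Against the upstream cdc-48.2 region alone the ratios were 6.00, 8.25 and 3.57. Ranks differed 488-fold in the pooled list, 488-fold in replicate 1 and 220-fold in replicate 2. The proteins were 88.1% identical (720 of 817 aligned columns) and the coding DNA 75.4% identical. The 1000 bp upstream of the starts, where the strongest cdc-48.1 region lies, were 45.8% identical. No value for unrelated genes stands beside this share, so it is not read as shared sequence. Both proteins held 2 Walker A matches, the loop that binds ATP, at residues 251 to 258 and 524 to 531 in CDC-48.1 and 250 to 257 and 523 to 530 in CDC-48.2.

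**Figure D3:**
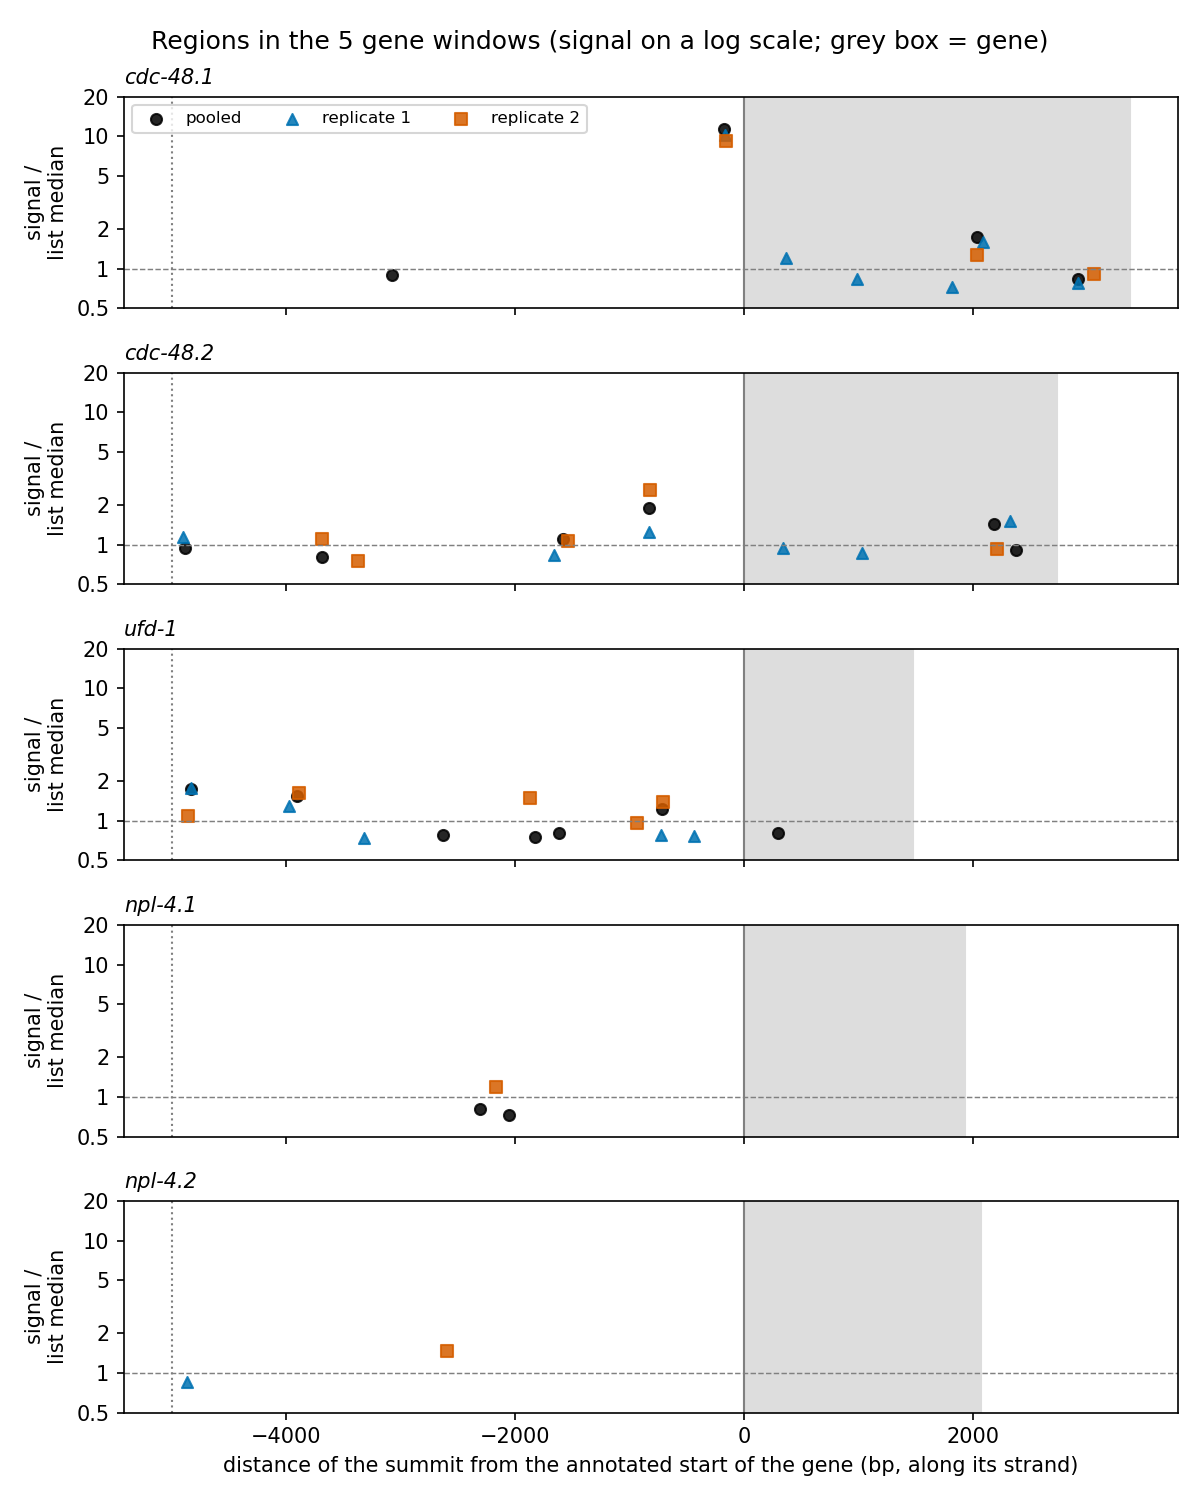
Signal of each region divided by the median of its list (vertical log axis) against the distance of its summit to the annotated start (bp along the strand), 1 panel per gene, with the gene as a grey box. The cdc-48.1 region just before the start stands at 11.4, 10.3 and 9.17 in the 3 lists, and no region of the other 4 genes exceeds 2.57.

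Of the 101-bp windows around the 2 CDC-48 summits, the one with the weaker signal held more GC-rich matches. The cdc-48.1 window, which lies within the region printed above, held 1 GC-rich 6-mer, AGCGCG on the other strand, printed as CGCGCT, whose first base is 217 bp before the start and 47 bp from the summit. The cdc-48.2 window held 5, in 2 overlapping runs: matches to ACGCGC, then AGCGCG, then GAGCGC overlap in the first run, at the summit, and a match to AGCGCG overlaps one to ACGCGC in the second. Any of the 5 GC-rich 6-mers occurred in 39.1% of such windows at the 990 strongest pooled regions, 9.39% of the 29010 below and 10.4% of all. AGCGCG alone was in 12.4% of the strongest windows and 1.78% of those below. The 5 GC-rich 6-mers had been picked as common under strong regions in these same data. Their higher share in the strongest windows therefore follows from that choice. TAATTG was in neither window; 10.4% of the strongest windows and 6.98% of those below held it. TAATTA, searched as well, was in neither window, and in 4.04% of the strongest windows and 3.13% of those below. GC content was 42.6% at cdc-48.1 and 41.6% at cdc-48.2, against medians of 46.5% in the strongest windows and 40.6% below. A match is a description of letters and not a measured site.

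ufd-1 (WBGene00006733), 1483 bp with 5 exons on the minus strand at chrIV:12329408-12330890, encodes the UFD-1 adaptor of 342 residues. Its strongest region ranked 3161 pooled, 3012 in replicate 1 and 3186 in replicate 2. The signals were 72.4, 53.2 and 28.0, or 1.74, 1.76 and 1.63 times the list medians. The place was not the same throughout: the summit was 4833 and 4828 bp upstream in the pooled and replicate 1 lists and 3884 bp upstream in replicate 2. The region at 4833 bp ranked 12087 in replicate 2. The replicate 2 region at 3884 bp had counterparts at rank 7689 in replicate 1 and 4643 pooled. The near ranks are thus of different places.

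All 3 summits lay in introns of F19B6.1, a gene on the same strand that ends 85 bp before ufd-1 starts. The pooled summit was 352 bp inside F19B6.1, whose start is the nearest. The pooled region closest before ufd-1, 715 bp upstream in a coding exon of F19B6.1, ranked 8858, and its counterparts ranked 25868 in replicate 1 and 5705 in replicate 2. The ufd-1 window at the strongest region held none of these motifs, with 40.6% GC. The nearest optimal regions lay 41194 bp upstream and 374232 bp downstream.

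npl-4.1 (WBGene00019120, chrII:5631351-5633284, plus strand, 1934 bp) and npl-4.2 (WBGene00019121, chrII:5622889-5624959, plus strand, 2071 bp) encode 2 forms of NPL-4, each of 529 residues. npl-4.1 had its strongest pooled region at rank 24206 with signal 33.3, 2305 bp upstream in a coding exon of F59E12.6, and a replicate 2 region at rank 9449 with signal 20.3, 2170 bp upstream. It had none in replicate 1. npl-4.2 had no pooled region, 1 at rank 21430 in replicate 1 (signal 25.8, 4870 bp upstream in a coding exon of dhs-6) and 1 at rank 4630 in replicate 2 (signal 25.2, 2595 bp upstream in a coding exon of eif-3.L). No region in any list had its summit inside either NPL-4 gene or within 1000 bp upstream. For scale, 3879 of the 19973 protein-coding genes had a region within 1000 bp upstream in both replicate lists. That count asks for both replicates and leaves out the gene itself, so it is not the same measure. The share of genes with none there or inside the gene in any list was not counted. The absence is therefore not read as particular to the NPL-4 genes.

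The 2 NPL-4 copies are close to identical in sequence. The proteins matched at 524 of 529 residues (99.1%) and the coding DNA at 99.5%. The identical stretch at their starts, 1339 bp, reaches 1325 bp upstream and 14 bp into the genes, and the starts lie 8462 bp apart. In the npl-4.1 window 54.3% of 50-mers occur again in the genome, and in the npl-4.2 window 41.3%, against 5.02% for cdc-48.1, 0% for cdc-48.2 and ufd-1 and a median of 0.599% over all gene windows. Within the genes themselves the shares were 82.6% for npl-4.1 and 79.5% for npl-4.2.

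How reads with more than 1 match were treated is not given in the sources used here. Among the 558 genes whose windows were at least 40% repeated, 26.5% held a pooled region, against 78.6% of the 14898 genes with under 5% repeated. Of all pooled regions, 0.227% were at least 50% repeated and 92.3% held no repeated 50-mer. Like most, the regions at the 5 genes, in every list, held none. The part of repeated sequence in the weak NPL-4 ranks was not tested.

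**Figure D4:**
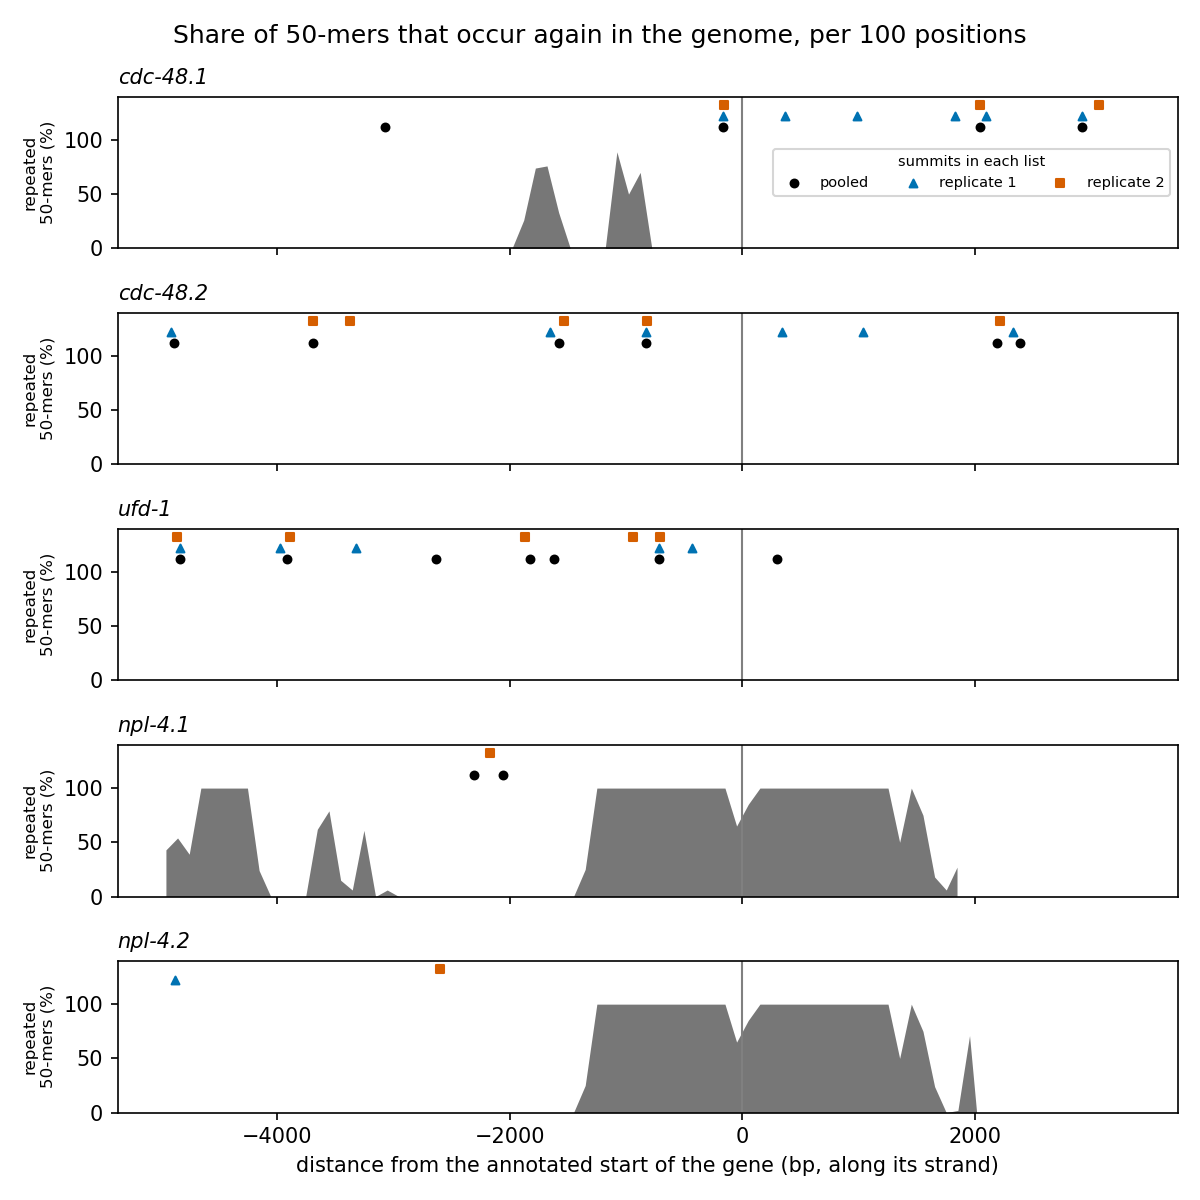
Share of 50-mers that occur again in the genome, per 100 positions (grey, %), against the distance to the annotated start (bp along the strand), with the summits of each list as symbols above. At npl-4.1 and npl-4.2 the grey reaches 100% on both sides of the starts and no summit lies there, while cdc-48.2 and ufd-1 are at 0% throughout.

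The replicates shared part of the regions. Of the 19 pooled regions at the 5 genes, 10 were overlapped by a region in both replicates and 3 in neither. Both pooled regions in cdc-48.2 coding exons overlapped the same replicate regions. The share over all pooled regions was not counted, so 10 of 19 is not read as high or low. Of these 19, 5 were inside one of the 5 genes and 14 upstream of one. Upstream summits could lie within a neighbouring gene, as those of ufd-1 did in F19B6.1. The start of one of the 5 genes was the nearest for 9, and 11 were in the weaker part of the list, with signals below its median. Shares of these places over all regions were not counted either. In the pooled list and in replicate 1, 1 region had q at or under 0.01, the cdc-48.1 one, and in replicate 2 there were 2, with the upstream cdc-48.2 region as the second. Over all 30000 regions of each list, 2161 pooled, 2127 replicate 1 and 2169 replicate 2 regions had such a q. Near the limit of 5000 bp, cdc-48.2 had a pooled region 4884 bp upstream (signal 39.3, rank 17163) and one outside at 6675 bp (signal 92.1, rank 1565), which would have been its strongest. ufd-1 had its strongest at 4833 bp and the next outside at 8038 bp (signal 31.0).

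Other genes of the same machinery were taken from 3 lists: 10 further CDC-48 cofactors, 11 genes of ubiquitin handling and endoplasmic reticulum-associated degradation, and 22 other AAA ATPases. Of the 43, 12 had a pooled region among the strongest (27.9%), 13 in replicate 1 and 11 in replicate 2, against the 9.28%, 9.23% and 8.62% of all genes given above. The median pooled rank of those with a region was 2664.5 in the 3 lists together and 7389 over all protein-coding genes. The lists were chosen with earlier results of these data known and are not independent. When a region counted only for the gene with the nearest start, 6 of the 43 counted (13.95%), against 4.13% of all genes.

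Among the cofactors, 3 of 10 qualified in the pooled list, and each had the nearest start. ufd-3, ortholog of the yeast Cdc48 partner Ufd3, ranked 157 with its summit 116 bp upstream, and 108 and 809 in replicates 1 and 2. ufd-2, a ubiquitin chain elongation factor, ranked 228 at 294 bp upstream, and 375 and 109 in the replicates. ubxn-3, a UBX-domain adaptor of CDC-48, ranked 786 at 880 bp upstream, and the same region ranked 501 in replicate 1 and 23318 in replicate 2. The median pooled rank of the 9 cofactors with a region was 6067.

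Of the ubiquitin and degradation genes, 3 of 11 qualified: ubql-1, a ubiquilin (rank 502), sel-11, the ortholog of the ER ubiquitin ligase Hrd1 (603), and ubq-1, the polyubiquitin gene (829). In replicates 1 and 2 the ubql-1 region ranked 808 and 425 and the sel-11 region 669 and 622. The ubq-1 region ranked 728 in replicate 1 and 2529 in replicate 2, outside the strongest, where another region in the ubq-1 window ranked 601. The ubql-1 summit was 477 bp upstream with its own start nearest, whereas the sel-11 and ubq-1 summits, 2801 and 2129 bp upstream, were nearest to F55A11.1 and EGAP1.1. Of the other AAA ATPases, 6 of 22 qualified. nsf-1, the membrane fusion ATPase (rank 77, 436 bp upstream), and atad-3, a mitochondrial ATPase (rank 227, 431 bp upstream), had the nearest starts. bcs-1 (182), prx-1 (416), vps-4 (425) and rpt-6 (440) did not, the nearest being col-38, mgrn-1, gsa-1 and his-72. The prx-1 region ranked 364 in replicate 1 and 2807 in replicate 2, outside the strongest, and the regions of the other 5 were among the strongest in both replicates, at ranks between 58 and 909. cdc-48.3, named here for its family name after its values were seen, had no pooled region and ranks of 20607 and 18141 in replicates 1 and 2.

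**Figure D5:**
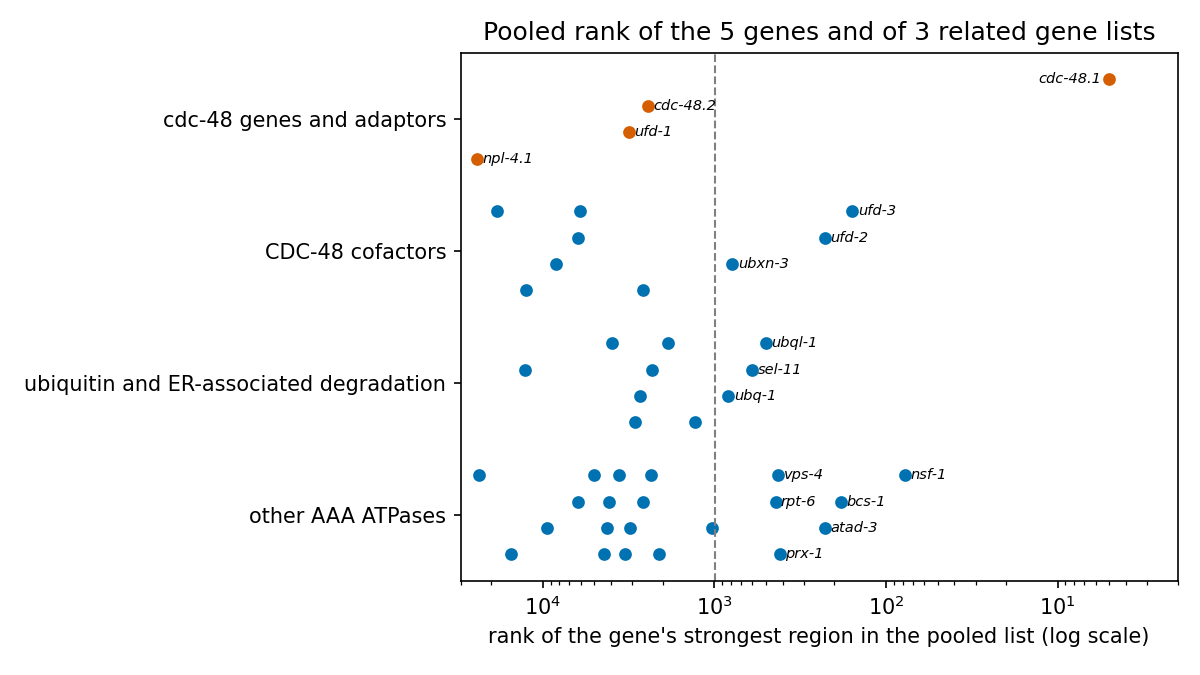
Rank of the strongest region of each gene in the pooled list (horizontal log axis, strong to the right), for the 5 genes and the 3 related lists, with the dashed line at rank 990; genes without a pooled region are not drawn. cdc-48.1 at rank 5 stands to the right of nsf-1 at 77, the first of the other 43 genes.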

How the data were processed

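Per the labels, the data are ChIP-seq of GFP-FLAG-tagged VAB-15 in 2 biological replicates of 1 group. The authors deposited region lists per replicate and for the pooled replicates. Each region has a signal value made by the authors, a deposited q-value on the -log10 scale and the offset of its summit. Aligner, peak caller, thresholds, depth and treatment of reads with several matches: not given in the sources used here. The lists on ce10 and the control experiment named in the labels were not used here.

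Regions were ranked by signal within each list, ties in list order. Genes were the 19973 protein-coding genes of Ensembl release 115 (WBcel235) on 6 chromosomes, and sequence was the RefSeq copy of that assembly. Summits were set against gene spans plus 5000 bp upstream. Motifs were searched on both strands in 101-bp windows. Repeats are 50-mers that occur again in the genome on either strand. Proteins were translated from coding exons and aligned with Biopython 1.88. Python 3.11.15, numpy 2.4.6, pandas 2.3.3 and matplotlib 3.10.9 were used. The assignment of summits to genes was tested on simulated data. With 1 group no test was run.

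The members, the gene lists and the 6-mers were chosen with earlier results of these data known. Genes named are the 5 members, list genes with a region among the strongest, the 5 genes most like cdc-48.1 and, for every region described, the gene that holds its summit and those with the nearest starts. cdc-48.3 falls outside this rule and was named after its values were seen. Alternatives changed the list, the upstream distance, the overlap, the number of strongest regions, the assignment to genes and the motif window.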

Additional observations from a re-analysis of the deposited data

How the results depend on the processing

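Of 56 alternatives over 16 results, 43 changed a rank or rank ratio by less than 1 SD of the 2 replicates, or a count by at most 1.5 times. The other 13 were counted as moved. They include npl-4.1 without replicate 1, for which no SD existed. The SD came from the same 2 replicate values that leaving out a replicate gives. Some settings, such as a shorter upstream distance at cdc-48.1, could not change the rank. The 43 is therefore no measure of robustness. The settings that left npl-4.1 without a rank are outside the 56, as are all ranks of npl-4.2. Leaving out a replicate gave 1 to 2 genes with a region among the strongest, ranks of 3 to 10 for cdc-48.1, 660 to 4883 for cdc-48.2 and 3012 to 3186 for ufd-1, 9449 for npl-4.1 without replicate 1, and a rank of cdc-48.1 over that of cdc-48.2 of 0.00205 to 0.00455. Counting only the nearest start moved cdc-48.2 to rank 5707, ufd-1 to 8858 and the 3 lists to 6 genes, with a rank ratio of 0.000876. With 2000 or 1000 bp upstream ufd-1 was also at 8858. The ufd-1 ranks in the 2 replicates are of different places. npl-4.1 had no rank with 2000 or 1000 bp, in replicate 1 or by nearest start, and npl-4.2 had no pooled region as reported, with 2000 or 1000 bp, by any overlap or by nearest start. Under the nearest start a region counts for 1 gene only, and the share over all protein-coding genes was 4.13%, against 9.28% as reported. Why the lists moved was not tested. No paired analysis was possible because there is 1 group and no test. Unknown depth and 2 replicates limit every rank.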
